A study of Mus musculus with 18 samples.

Results

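The 10 transcription factor genes of embryonic mesenchyme followed here were Twist1, Twist2, Osr1, Osr2, Prrx1, Prrx2, Shox2, Msx1, Msx2 and Meox2, measured in mouse embryonic fibroblasts (MEFs) that lack thymine DNA glycosylase (Tdg). They were named as a list of limb mesenchyme regulators and matched by gene symbol to the annotated probe sets of the fibroblast arrays. All 10 genes were found, on 15 of 22690 probe sets, and they are 10 of the 12394 genes with a probe set of their own. The name of the list refers to where these factors are studied: no label says that the fibroblasts came from limbs.

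The Tdg-/- MEFs all came from clone 9, and they were compared with Tdg+/- MEFs, all from clone 4. Both lines were immortalised with SV40 and grown in DMEM with fetal calf serum, and 3 Affymetrix arrays were run per genotype from 13 µg of total RNA each. Each genotype is thus 1 clone, so that genotype and clone cannot be told apart, and the Tdg+/- cells carry 1 disrupted allele themselves. Whether the 3 samples of a genotype were separate cultures is not stated, so p-values cover only the spread among these arrays, part or all of which may be technical. The series also holds embryonic stem cells and neuronal precursors on another platform, which were not used here.

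Limb buds and facial primordia fill with loose mesenchyme, in which these factors keep cells proliferating, hold back differentiation or set the place where skeletal elements form. Twist1 and Twist2 are basic helix-loop-helix proteins that pair with E proteins and bind E-boxes. Osr1 and Osr2 are odd-skipped zinc finger proteins, and Prrx1, Prrx2, Shox2, Msx1, Msx2 and Meox2 are homeodomain proteins. TDG removes thymine and oxidised methylcytosine from DNA at CpG sites, and is studied for its part in keeping CpG-rich promoters of developmental genes free of methylation. Methylation was not measured in these samples.

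CpG content is therefore shown for the 2 paralog pairs with the largest shifts against each other, among the pairs with both promoters at hand. RefSeq (GRCm38.p6) gives a promoter for 8 of the 10 genes, all but Osr1 and Osr2. The 250 bases before the start of each gene are written 5′ to 3′ on the strand of the gene, with CG dinucleotides in capitals. The windows are chr1:91801211-91801460, plus strand, for Twist2, chr12:33957421-33957670, plus strand, for Twist1, chr2:30845117-30845366, plus strand, for Prrx2, and chr1:163313651-163313900, minus strand, for Prrx1.
Twist2: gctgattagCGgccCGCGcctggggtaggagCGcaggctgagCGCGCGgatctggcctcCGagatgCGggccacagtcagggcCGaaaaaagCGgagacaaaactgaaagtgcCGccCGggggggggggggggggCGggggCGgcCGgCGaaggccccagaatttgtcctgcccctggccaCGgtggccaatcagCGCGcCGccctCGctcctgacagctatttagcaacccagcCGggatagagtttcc
Twist1: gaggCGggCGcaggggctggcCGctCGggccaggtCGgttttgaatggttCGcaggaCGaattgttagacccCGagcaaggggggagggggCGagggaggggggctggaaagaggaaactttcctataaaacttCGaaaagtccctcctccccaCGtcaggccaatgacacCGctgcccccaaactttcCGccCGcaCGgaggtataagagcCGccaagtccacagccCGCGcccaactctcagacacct
Prrx2: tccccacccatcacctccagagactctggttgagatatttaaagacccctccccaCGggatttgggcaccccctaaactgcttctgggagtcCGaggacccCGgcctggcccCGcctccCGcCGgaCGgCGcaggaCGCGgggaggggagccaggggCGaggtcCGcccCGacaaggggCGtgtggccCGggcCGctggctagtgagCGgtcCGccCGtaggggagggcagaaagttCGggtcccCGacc
Prrx1: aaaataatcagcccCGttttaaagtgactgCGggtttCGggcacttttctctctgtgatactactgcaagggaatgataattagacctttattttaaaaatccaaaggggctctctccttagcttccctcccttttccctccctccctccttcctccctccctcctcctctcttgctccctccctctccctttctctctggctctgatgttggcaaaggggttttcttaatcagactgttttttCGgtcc
The Twist2 window holds 23 CG and that of Twist1 18, against a median of 6 over 32851 promoter windows of the same length. The Prrx2 window holds 21 CG and the Prrx1 window 4, and Prrx1 is the only factor of the 8 below that median. The windows of Twist2 and Prrx2 hold more CG than 86.7% and 83.7% of all windows, and the array signal of the first was lower and that of the second higher in Tdg-/- cells. A link between CG content and the change of any factor was not tested. The other 4 windows hold 11 (Shox2), 20 (Msx1), 16 (Msx2) and 12 (Meox2). The E-box letters CANNTG, which read the same on both strands, occur in 3 of the 8 windows (Msx1, Msx2 and Meox2), against 66.2% of all windows. The homeodomain core TAATTA, also the same on both strands, occurs in 2 (Prrx1 and Msx2), against 4.8%, and no match of one overlaps a match of the other in these windows. A match is only a match of letters in these windows.

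The arrays were checked before the factors were compared. The Tdg probe set that fell most, which also carries the names of 2 Tdg pseudogenes, read 6.42, 6.12 and 6.48 in Tdg-/- cells, against 8.87, 8.87 and 9.24 in Tdg+/- cells (log2). The other Tdg probe sets, with the same names, were lower too. Their means were 7.68 and 6.92 in Tdg-/- cells, against 9.47 and 9.18 in Tdg+/- cells. The deleted part of the gene is not stated, and a probe set outside it would check nothing. Tdg+/- replicate 1 stood apart: it correlated at 0.962 and 0.953 with the other Tdg+/- arrays, while all other pairs of arrays of 1 genotype reached at least 0.996. Its values were also less spread out, with an SD over probe sets of 1.70, against 1.81 to 1.90 on the other 5 arrays. The changes of the factors, the paralog shifts and the list counts are therefore also given without this array. Of 12 fibroblast markers, 11 in Tdg-/- and 12 in Tdg+/- cells lay above 95% of the 31 olfactory receptor genes, which serve as a level that fibroblasts do not use. The Tdg probe set with a Tdg-/- mean of 7.68 also lay above that level, which was 7.28 in Tdg-/- cells. The summed fibroblast marker signal was 54823 to 57921 in Tdg-/- and 60669 to 62774 in Tdg+/- cells. Markers of epithelium, endothelium, blood, nerve and skeletal muscle were above that level in 0 to 2 cases per list. Their mean signal per array ran from 5.99 to 6.41 in Tdg-/- and from 6.14 to 6.83 in Tdg+/- cells (log2), against an olfactory receptor median of 6.16 in Tdg-/- and 6.41 in Tdg+/- cells. A bulk sample does not tell fewer cells of a type from less RNA per cell.

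Twist2, Osr2 and Prrx2 differed between the genotypes, though the Prrx2 call was lost in 8 of 13 alternative fits. Twist2 and Osr2 were lower and Prrx2 was higher in Tdg-/- MEFs, and the other 7 factors did not pass the test, a limma fit across all 12394 genes with a Benjamini-Hochberg adjusted p under 0.05. Over all genes, 1.32% passed as lower and 2.52% as higher, or 3.83% in either direction (475 genes). The median log2 change of the 10 factors was -0.34, against -0.02 over all genes. Without Tdg+/- replicate 1, 7 factors were lower and 1 was higher, where 7.87% of all genes passed as lower and 14.1% as higher (22.0% in all), and the median was -0.43, against -0.03 over all genes. After quantile normalization of all 6 arrays 4 factors were lower and 0 higher, where 2.16% of all genes passed as lower and 2.70% as higher (4.87% in all).

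**Figure D1:**
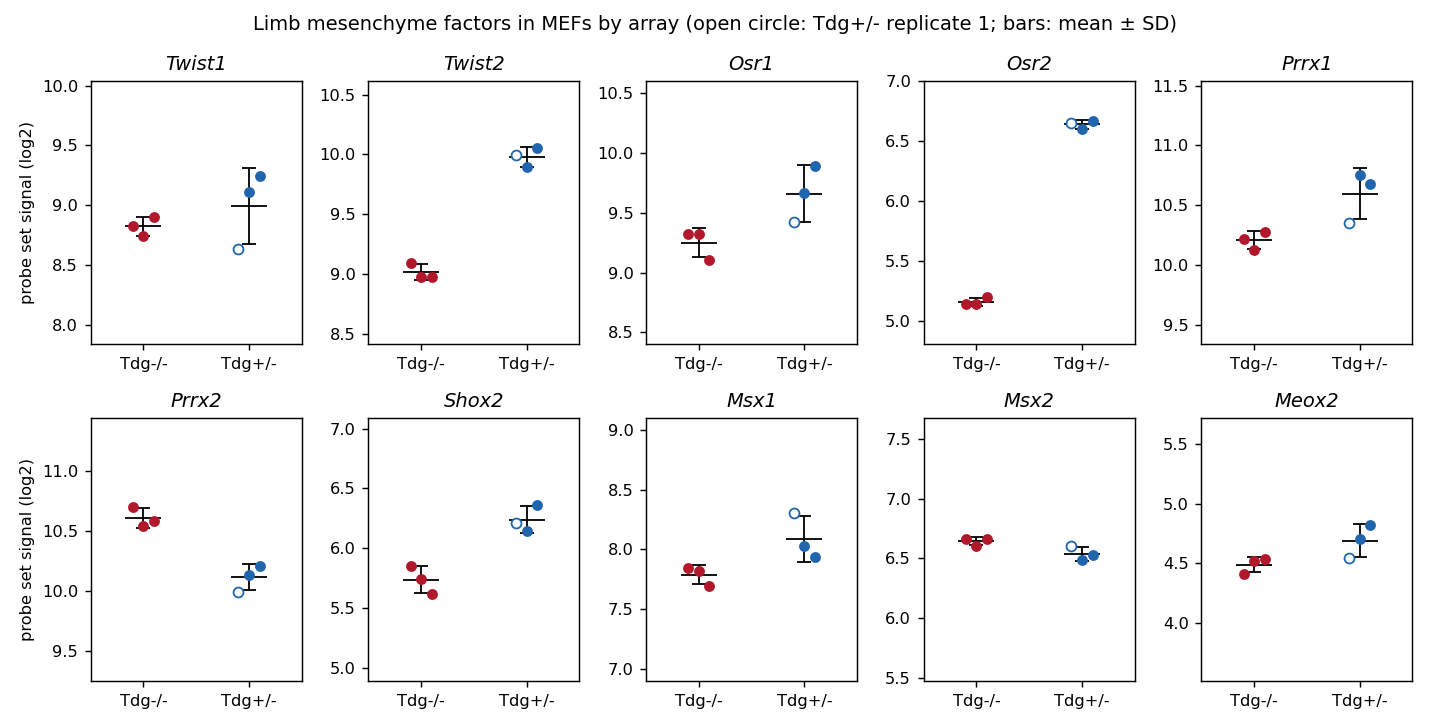
Probe set signal (log2) of the 10 factors on each array, with Tdg-/- MEFs in red on the left and Tdg+/- MEFs in blue on the right of each panel; bars are mean ± SD (n = 3), the open circle is Tdg+/- replicate 1, and every panel spans the same range. Osr2 and Twist2 show the widest gaps, Prrx2 lies the other way round, and for Twist1 the open circle lies below the red points.

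Of the basic helix-loop-helix factors, Twist2 passed the test and Twist1 did not. Twist2, which is known for holding back differentiation in dermal and bone-forming mesenchyme, read 9.09, 8.98 and 8.97 in Tdg-/- cells, against 9.99, 9.89 and 10.05 in Tdg+/- cells (log2). The 2 groups are far apart and each is tight, including Tdg+/- replicate 1. Twist2 was 1.95-fold lower in Tdg-/- cells, with a log2 change of -0.97 ± 0.09 (SE; limma adjusted p = 0.00313). The change was -0.96 without Tdg+/- replicate 1 (limma adjusted p = 1.11e-06).

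Twist1, which limb buds and the cranial neural crest need for their mesenchyme to survive and form, read 8.82, 8.74 and 8.90 in Tdg-/- cells, against 8.64, 9.11 and 9.24 in Tdg+/- cells (log2). The groups overlap through Tdg+/- replicate 1, the lowest of the 6 values. The log2 change was -0.17, with a 95% interval from -0.57 to 0.22 (limma adjusted p = 0.474). Without that array Twist1 was 1.28-fold lower, a log2 change of -0.35 with an interval from -0.53 to -0.18 (limma adjusted p = 0.00658). A fall of the size seen for Twist2 lies outside both intervals.

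Osr2, a zinc finger factor known for palate growth and joint formation, showed the largest change of the 10. Its signal was 5.14, 5.14 and 5.19 in Tdg-/- cells, against 6.65, 6.60 and 6.67 in Tdg+/- cells (log2). No array of either group came near the other group. The difference was 2.80-fold, a log2 change of -1.48 ± 0.08 (SE; limma adjusted p = 0.000393), and -1.48 without Tdg+/- replicate 1 (limma adjusted p = 5.75e-09). The Osr2 mean lay below all 31 olfactory receptor genes in Tdg-/- cells and above 64.5% of them in Tdg+/- cells. Both levels are thus within or under the range of genes that fibroblasts do not use, expression of Osr2 was not established in either genotype, and the fold may be understated.

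Osr1, a factor of limb and body wall connective tissue, lay well above the olfactory receptor genes. It read 9.32, 9.32 and 9.11 in Tdg-/- cells, against 9.42, 9.66 and 9.89 in Tdg+/- cells (log2). The groups do not overlap, but the gap between the highest Tdg-/- value and Tdg+/- replicate 1 is small beside the spread in Tdg+/- cells. The log2 change was -0.41, with a 95% interval from -0.74 to -0.07, and did not pass after adjustment (limma adjusted p = 0.165). Without Tdg+/- replicate 1 it was -0.53 (limma adjusted p = 0.00104), and after quantile normalization of all 6 arrays it was -0.58 (limma adjusted p = 0.0277).

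Of the paired-related homeobox genes, Prrx2, which shares with Prrx1 the patterning of limb and facial skeleton, was the one that passed. It read 10.70, 10.54 and 10.58 in Tdg-/- cells, against 9.99, 10.14 and 10.21 in Tdg+/- cells (log2). Every Tdg-/- value lies above every Tdg+/- value, with similar spread in both groups. Prrx2 was 1.41-fold higher, a log2 change of 0.49 ± 0.10 (SE) that passed narrowly (limma adjusted p = 0.0459). The change was 0.43 without Tdg+/- replicate 1 (limma adjusted p = 0.00137). Leaving out any 1 of the other 5 arrays ended the call (limma adjusted p from 0.0560, without Tdg+/- replicate 3, to 0.218, without Tdg-/- replicate 1), as did quantile normalization (0.0824).

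Prrx1, which marks limb bud mesenchyme and whose enhancer is widely used to drive Cre there, was measured by 4 probe sets. The brightest read 10.22, 10.12 and 10.28 in Tdg-/- cells, against 10.35, 10.75 and 10.68 in Tdg+/- cells (log2). The groups do not overlap, and Tdg+/- replicate 1 is the Tdg+/- value nearest to the Tdg-/- cells. The log2 change was -0.39, with a 95% interval from -0.69 to -0.09 (limma adjusted p = 0.148). It was -0.51 without Tdg+/- replicate 1 (limma adjusted p = 0.000364) and -0.54 after quantile normalization (limma adjusted p = 0.0222). All 4 probe sets were lower in Tdg-/- cells, by -0.62, -0.35, -0.39 and -0.43 on the log2 scale. None of these passed when all 20393 probe sets with 1 gene were fitted (limma adjusted p from 0.104 to 0.304), where 3.09% passed. All 4 passed there once Tdg+/- replicate 1 was left out (limma adjusted p from 0.00129 to 0.00542).

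Shox2, a homeobox gene that the upper limb segment needs to grow, narrowly missed the threshold. It read 5.85, 5.74 and 5.62 in Tdg-/- cells, against 6.21, 6.14 and 6.36 in Tdg+/- cells (log2). The groups do not overlap. The log2 change was -0.50, with a 95% interval from -0.75 to -0.25 (limma adjusted p = 0.0535). It was -0.51 without Tdg+/- replicate 1 (limma adjusted p = 0.00106). Its mean lay above 22.6% of the olfactory receptor genes in Tdg-/- cells and above 38.7% in Tdg+/- cells, so that its expression was not established.

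The Msx genes, homeobox repressors that respond to BMP signalling in the limb and skull, did not pass the test. Msx1 was measured by 2 probe sets, of which the brighter carries a suffix for probes that can match more than 1 transcript. That probe set read 7.85, 7.82 and 7.70 in Tdg-/- cells, against 8.30, 8.03 and 7.93 in Tdg+/- cells (log2). Here Tdg+/- replicate 1 was the highest value, unlike for Twist1, Osr1 and Prrx1. The log2 change was -0.30, with a 95% interval from -0.59 to -0.01 (limma adjusted p = 0.209), and -0.19 without that array (limma adjusted p = 0.105). The other Msx1 probe set had a change of -0.11, with overlapping groups. Msx2 read 6.66, 6.60 and 6.66 in Tdg-/- cells, against 6.60, 6.49 and 6.53 in Tdg+/- cells (log2). These values hardly part, and the change of 0.10 had an interval from -0.09 to 0.30 (limma adjusted p = 0.397). It was 0.13 without Tdg+/- replicate 1 (limma adjusted p = 0.217). The Msx2 mean was above 64.5% of the olfactory receptor genes in Tdg-/- and 61.3% in Tdg+/- cells.

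Meox2, a homeobox gene of somites and limb muscle precursors, was the dimmest of the 10 on the arrays, and its mean lay below all 31 olfactory receptor genes in both genotypes. The brighter of its 2 probe sets read 4.42, 4.52 and 4.53 in Tdg-/- cells, against 4.55, 4.70 and 4.82 in Tdg+/- cells (log2). The log2 change of -0.20 had a 95% interval from -0.44 to 0.04 (limma adjusted p = 0.273), and without Tdg+/- replicate 1 it was -0.27 (limma adjusted p = 0.0249). At this level neither value establishes expression.

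Counted by gene, the 3 Tdg-/- values lay below the 3 Tdg+/- values for 7 factors and above them for 2, and overlapped for Twist1. Over all genes the shares were 16.8% below and 22.6% above. With Tdg+/- replicate 1 left out, Twist1 joined the factors below, making 8 below and 2 above, where 24.2% and 26.0% of all genes did so.

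**Figure D2:**
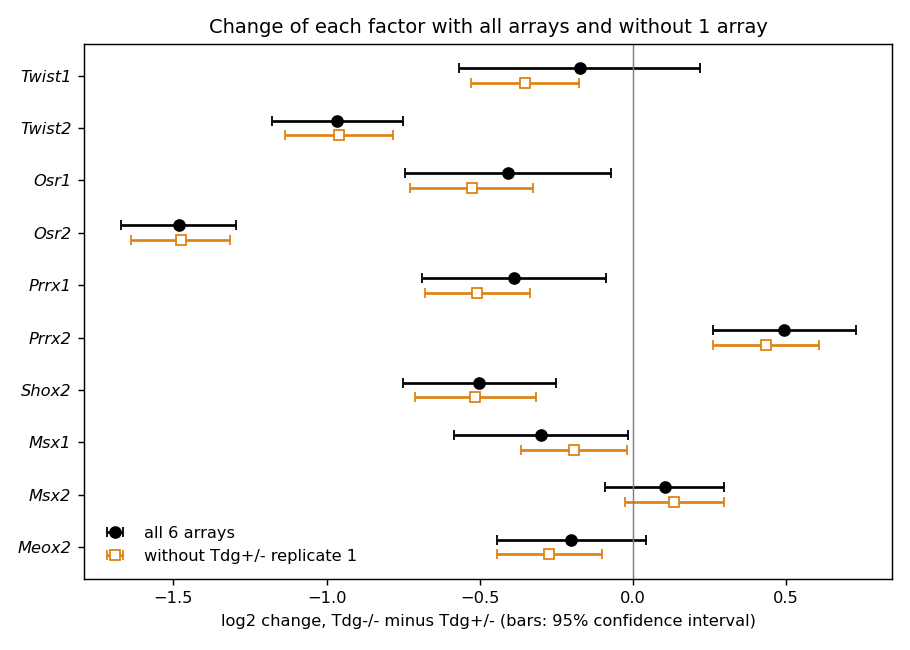
Log2 change of each factor in Tdg-/- minus Tdg+/- MEFs with its 95% confidence interval, from all 6 arrays (black circles) and without Tdg+/- replicate 1 (orange squares). Osr2 at -1.48 and Twist2 at -0.97 keep their place, while Twist1 moves from an interval that crosses 0 to one that does not.

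Because both paralogs of a pair are read on the same array, their difference was compared between the genotypes. This removes a shift of equal size in both, but not one that depends on signal level. The difference of Twist2 minus Twist1 was 0.27, 0.24 and 0.07 in Tdg-/- cells, against 1.36, 0.78 and 0.81 in Tdg+/- cells (log2). The difference of Osr2 minus Osr1 was -4.18, -4.19 and -3.92 in Tdg-/- cells, against -2.77, -3.06 and -3.23 in Tdg+/- cells. The groups separate in both pairs, with a shift of -0.79 for the Twist pair and -1.08 for the Osr pair. Since Osr2 lay below all 31 olfactory receptor genes in Tdg-/- cells, the Osr shift rests on a signal whose expression was not established, and its size may be understated. Prrx2 minus Prrx1 was 0.48, 0.41 and 0.30 in Tdg-/- cells, against -0.36, -0.62 and -0.47 in Tdg+/- cells, a shift of 0.88. Msx2 minus Msx1 shifted by 0.40, to a mean of -1.15 ± 0.10 in Tdg-/- cells, against -1.55 ± 0.15 in Tdg+/- cells (SD, n = 3). How often such differences separate over other gene pairs was not counted. Of single genes, 16.8% had all Tdg-/- values below and 22.6% above the Tdg+/- values. The Twist, Osr and Prrx pairs also each hold a factor that passed the test by itself. Each of the 4 pairs had p = 0.1 in a two-sided exact permutation test, also after adjustment over the 4 pairs, which is the smallest p that 3 arrays against 3 allow. Without Tdg+/- replicate 1 the shifts were -0.61 for the Twist pair, -0.95 for Osr, 0.94 for Prrx and 0.33 for Msx, each with an exact permutation p of 0.2, again the smallest possible. A level of 1 paralog is not set against the other, since probe sets differ in brightness.

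**Figure D3:**
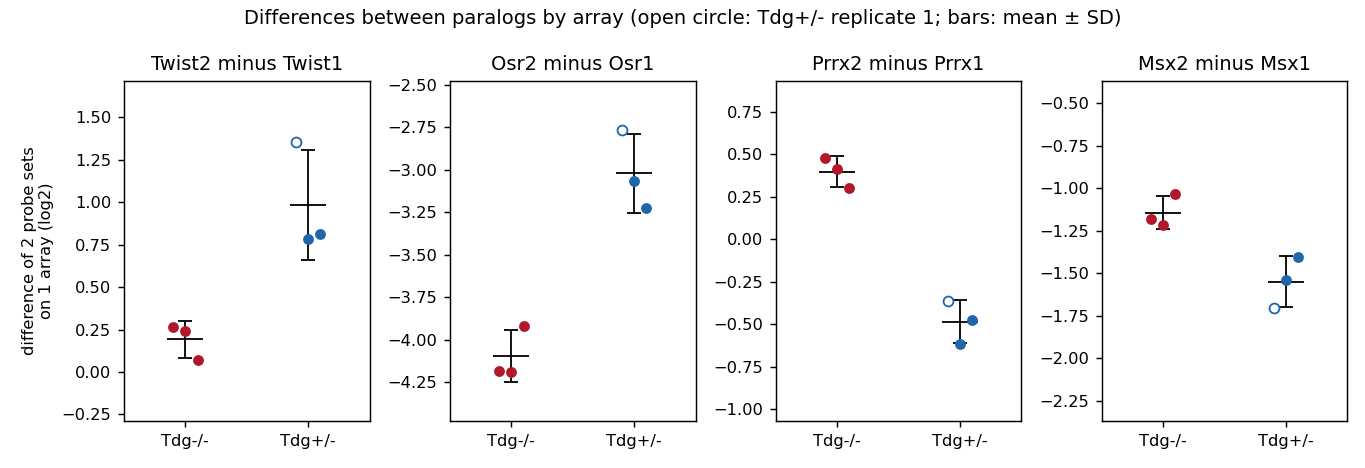
Difference between the probe sets of 2 paralogs on the same array (log2), with Tdg-/- MEFs in red on the left and Tdg+/- MEFs in blue on the right; bars are mean ± SD (n = 3), the open circle is Tdg+/- replicate 1, and every panel spans 2 log2 units. The genotypes do not overlap in any of the 4 pairs, downward for Twist and Osr and upward for Prrx and Msx. The share of other gene pairs that separate was not counted. Single genes did so in 16.8% (below) and 22.6% (above) of cases.

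The genes around these factors were followed in lists of limb and mesenchyme biology. Over all genes 1.32% passed as lower and 2.52% as higher, and without Tdg+/- replicate 1 these shares were 7.87% and 14.1%. Of 39 genes of limb signalling (FGF, BMP, hedgehog and WNT ligands, receptors and inhibitors), 3 fell in Tdg-/- cells, 0 rose and 36 did not pass, with a median log2 change of -0.14. Bmp4, a BMP ligand upstream of the Msx genes, read 9.20, 9.10 and 9.17 in Tdg-/- cells, against 10.02, 10.01 and 10.32 in Tdg+/- cells (log2). That is 1.95-fold lower (limma adjusted p = 0.00717), with no overlap. Neither Msx gene passed (log2 changes of -0.30 for Msx1 and 0.10 for Msx2), and a link between Bmp4 and the Msx genes was not tested. Spry1, a feedback inhibitor of FGF signalling, was 1.64-fold lower (limma adjusted p = 0.0172), and the limb bud ligand Fgf10 was 1.50-fold lower (limma adjusted p = 0.0407). The 3 calls were lost without any 1 of the Tdg-/- arrays (limma adjusted p from 0.0542 to 0.221), and those of Spry1 and Fgf10 also without Tdg+/- replicate 2 (0.0993 and 0.165). Without 1 Tdg-/- array the log2 changes were -0.98 to -0.93 for Bmp4, -0.76 to -0.62 for Spry1 and -0.62 to -0.54 for Fgf10. In those fits 95 to 116 of 12394 genes passed, against 475 with all arrays. The Fgf10 means, 6.06 in Tdg-/- and 6.64 in Tdg+/- cells, lie within the olfactory receptor range. With Tdg+/- replicate 1 left out, 7 genes of this list fell and 4 rose, with a median of -0.14, and the changes of Bmp4, Spry1 and Fgf10 were -1.01, -0.69 and -0.51 (limma adjusted p up to 0.000707).

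Of 50 measured other transcription factors of limb and mesenchyme, 2 rose, 1 fell and 47 did not pass, with a median log2 change of -0.24. Over all genes 2.52% passed as higher and 1.32% as lower. Tbx15, a T-box factor of dermis and limb skeleton, read 6.95, 6.70 and 6.72 in Tdg-/- cells, against 8.22, 8.17 and 8.30 in Tdg+/- cells (log2). It was 2.71-fold lower (limma adjusted p = 0.00109), and both of its probe sets passed. Its Tdg-/- mean of 6.79 lies below the olfactory receptor 95th percentile of 7.28, so that expression in Tdg-/- cells was not established and the fold may be understated. En1, a homeobox factor of the ventral limb ectoderm and of the midbrain and hindbrain, was 2.15-fold higher (limma adjusted p = 0.00269), and the forkhead factor Foxd1, known in kidney stroma, was 1.94-fold higher (limma adjusted p = 0.0042). The En1 means were 7.19 in Tdg-/- and 6.08 in Tdg+/- cells and those of Foxd1 7.22 and 6.26, all below the olfactory receptor 95th percentile of 7.28 and 7.32 in those groups, so that neither gene's expression was established. These 3 calls held with each array left out in turn. In this list 6 genes rose and 12 fell without Tdg+/- replicate 1, and the median was -0.03. Of all genes 14.1% passed as higher and 7.87% as lower in that fit.

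None of the 7 E proteins and Id proteins, which are the partners of the Twist proteins and the inhibitors of such pairs, passed the test (limma, 12394 genes), with a median log2 change of -0.04. At an unadjusted limma p under 0.05, 2 were higher and 2 lower. The share of all genes under that limit was not counted, so no result is read from such counts. The largest change with all arrays was that of Id4, a log2 change of -1.16 that did not pass (limma adjusted p = 0.0880). When Tdg+/- replicate 1 was left out, 2 of these proteins' genes rose and 2 fell, and the median was -0.22. Those that rose were Id2 (0.48) and Id3 (0.32). Those that fell were Id1 (-0.66) and Id4 (-1.50, limma adjusted p = 6.23e-08). Of all genes 14.1% passed as higher and 7.87% as lower in that fit, against 2.52% and 1.32% with all arrays. Of 23 measured genes of skeletal and tendon differentiation, 2 rose, 1 fell and 20 did not pass, with a median log2 change of -0.15. Without Tdg+/- replicate 1, 6 rose and 2 fell, and the median was -0.10. Col2a1, which encodes the cartilage collagen, read 10.01, 9.78 and 9.94 in Tdg-/- cells, against 8.02, 8.14 and 7.66 in Tdg+/- cells (log2). The 3.90-fold rise (limma adjusted p = 0.00127) held with each array left out. The matrix gene Tnc was 1.69-fold higher (limma adjusted p = 0.0159) and the proteoglycan gene Dcn 1.60-fold lower (limma adjusted p = 0.0207). Both calls were lost without Tdg+/- replicate 2 or any 1 of the Tdg-/- arrays (limma adjusted p up to 0.116 and 0.137). No gene passed (limma) among 17 of the muscle lineage or 10 of the fat lineage, whose median log2 changes were -0.20 and -0.08. At an unadjusted limma p under 0.05, 1 muscle gene was lower, and in the fat list 1 gene was higher and 1 lower. Here too the share over all genes was not counted. Without Tdg+/- replicate 1 the test called 0 genes in the muscle list and 1 in each direction in the fat list, with medians of -0.06 and -0.02.

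**Figure D4:**
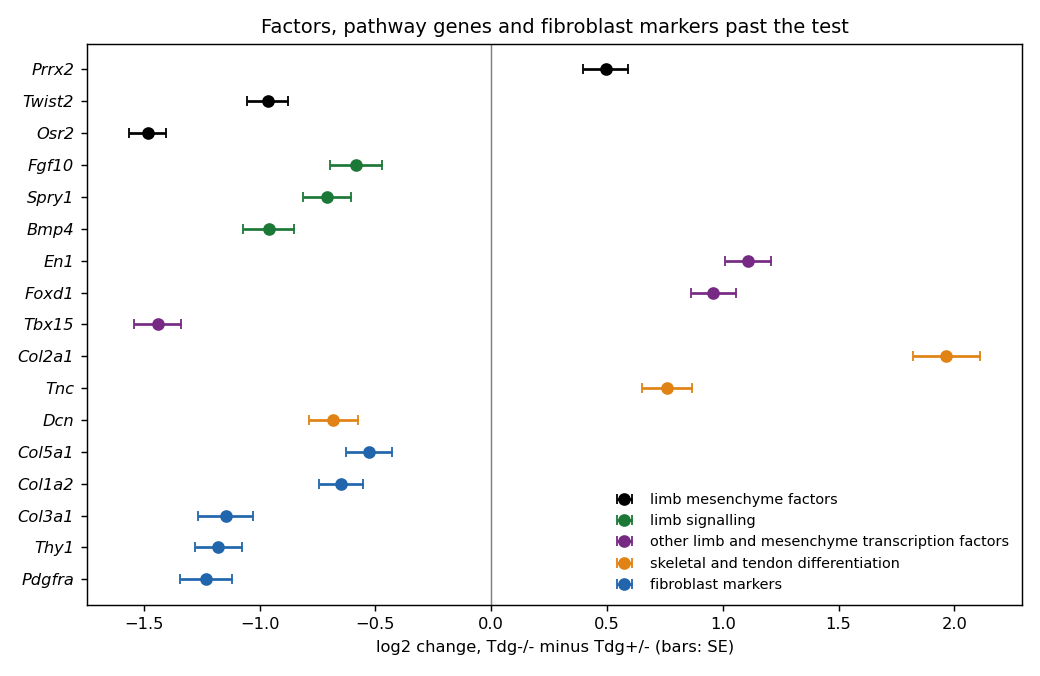
Log2 change ± SE in Tdg-/- minus Tdg+/- MEFs for the factors, the pathway genes and the fibroblast markers that passed the limma test, coloured by list. Col2a1 lies farthest to the right at 1.97 and Osr2 farthest to the left at -1.48, and the 5 fibroblast markers that passed lie left of 0.

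General fibroblast markers did not all move one way. Of 12 such markers 5 fell in Tdg-/- cells, 0 rose and 7 did not pass, with a median log2 change of -0.20. With Tdg+/- replicate 1 left out, 6 fell and 1 rose, and the median was -0.23. Over all genes 1.32% passed as lower and 2.52% as higher with all arrays, and 7.87% and 14.1% without that array. Pdgfra, the receptor that marks mesenchymal cells, read 6.95, 6.99 and 6.65 in Tdg-/- cells, against 8.11, 8.13 and 8.04 in Tdg+/- cells (log2), 2.35-fold lower (limma adjusted p = 0.0031). Its Tdg-/- mean of 6.86 lies within the olfactory receptor range. Thy1 was 2.26-fold lower, Col3a1 2.21-fold, Col1a2 1.57-fold and Col5a1 1.44-fold. The Col1a2 and Col5a1 calls were lost without Tdg+/- replicate 2 or any 1 of the Tdg-/- arrays, and that of Col5a1 also without Tdg+/- replicate 3 (limma adjusted p up to 0.126 and 0.195). The receptor gene Pdgfrb, named here after its values were seen, read 9.46, 9.88 and 9.76 in Tdg-/- cells, against 8.06, 8.71 and 8.98 in Tdg+/- cells (log2). The groups do not overlap, and its log2 change of 1.12 did not pass (limma adjusted p = 0.0592), while without Tdg+/- replicate 1 it was 0.86 (limma adjusted p = 9.96e-05). Of the other markers, Col1a1, Vim, Fn1 and P4hb had every Tdg-/- value above every Tdg+/- value. None of these passed in either fit (log2 changes from 0.08 to 0.23 with all arrays). S100a4 had every Tdg-/- value below, with a log2 change of -0.40 that did not pass (limma adjusted p = 0.120). Without Tdg+/- replicate 1 the S100a4 change was -0.48 (limma adjusted p = 0.00137). Sparc overlapped. Over all genes, 22.6% had every Tdg-/- value above and 16.8% had every one below. The part of these marker changes in those of Twist2 and Osr2 was not tested. Outside the fibroblast list 2 markers passed, Kdr of endothelium (1.50-fold lower) and Cd14 of macrophages (1.54-fold higher). Neither passed without Tdg+/- replicate 2 or any 1 of the Tdg-/- arrays (limma adjusted p up to 0.198 and 0.119), nor Kdr without Tdg+/- replicate 3 (0.0629). The Cd14 mean in Tdg+/- cells, 7.17, lies below the olfactory receptor 95th percentile of 7.32. Both passed without Tdg+/- replicate 1 (limma adjusted p up to 4.23e-05), where the lists held 1 higher epithelial marker, 2 lower endothelial, 1 higher of blood and macrophages, 1 neural in each direction and 0 of skeletal muscle.

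The genes whose values ran most like those of the 3 factors past the test were sought among genes of above-median level, by Pearson correlation over the 6 arrays. These arrays form 2 genotype groups, so that such a value mostly restates the genotype difference, and it is given as a description. Nearest to Twist2 were Cnn1 (0.998), Dlk1 (0.996), Crtap (0.995), Zfand2a (0.994) and Lipg (0.993). Nearest to Osr2 were Lipg (0.9996), Sfrp2 (0.999), Ptn (0.998), Gjb2 (0.998) and Igf2 (0.998). Nearest to Prrx2, which ran the other way, were Celf2 (0.999), Dpysl3 (0.995), Cnppd1 (0.995), Kif3a (0.993) and Pmp22 (0.993). Lipg, which encodes endothelial lipase, was the gene named for both Twist2 and Osr2. It read 7.47, 7.47 and 7.59 in Tdg-/- cells, against 9.30, 9.21 and 9.36 in Tdg+/- cells (log2).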

How the data were processed

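RNA of 3 Tdg-/- and 3 Tdg+/- MEF samples was measured on Affymetrix arrays. The authors deposited log2 expression values per probe set, with array medians from 7.38 to 7.42. Per the submitters' processing notes, MAS5, RMA, affy and limma were used, with no role stated for each. No detection calls were used, and folds of dim genes may be understated. Probe sets were named from the platform annotation, updated by gene identifier to RefSeq GRCm38.p6: of 22690, 20393 had 1 symbol, 691 several and 1606 none. Each gene was read from its probe set with the highest mean. The genotypes were compared with limma 3.58.1 in R 4.3.3 (lmFit and eBayes, no covariate), with Benjamini-Hochberg adjustment, a threshold of 0.05 and 95% intervals, after a test on simulated data. Paralog differences were compared with an exact permutation test (scipy 1.17.1). No 2 arrays held identical values, and their number limits the precision.

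The factors and lists were chosen with earlier results of these data known, so no count over them is independent support. Genes named are the 10 factors, Tdg, up to 6 genes past the test per list, markers past the test, and the 5 genes most like each factor past the test, skipping clone and model names. The Id genes and the fibroblast markers that did not pass were named after their values were seen. The alternatives changed the normalization, the filter on dim probe sets, the probe set rule, the variance model, the size limit, the replicate block and the arrays included, and a combination of 2 of them was added after seeing the data.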

Additional observations from a re-analysis of the deposited data

How the results depend on the processing

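Twist2 and Osr2 had an adjusted p under 0.05 in every alternative fit that kept them, though Twist2, at 1.95-fold, was not past the 2-fold limit, with log2 changes from -1.12 to -0.93 and from -1.50 to -1.37 and limma adjusted p up to 0.0382 and 0.00891; no factor changed direction. With quantile normalization 603 of 12394 genes passed, 4 factors fell and 0 rose, as Osr1 (-0.58) and Prrx1 (-0.54) passed and Prrx2 (0.34) did not. With the replicate block 237 genes passed, and 0 factors rose, since Prrx2 (0.49) had an adjusted p of 0.104. Tested over all probe sets, 631 of which passed, 0 factors rose (Prrx2, 0.49, adjusted p = 0.0554). With the mean of all probe sets 481 genes passed and 3 factors fell, as Shox2 (-0.50) passed (adjusted p = 0.0485). With dim probe sets left out Osr2, Shox2, Msx2 and Meox2 were not tested, 593 of 6948 genes passed and 1 factor fell. With a 2-fold limit 147 genes passed, 0 factors rose and 1 fell. Of the list genes and markers past the test, Fgf10, Col1a2, Col5a1, Kdr and Cd14 did not pass with the replicate block (adjusted p from 0.0509 to 0.0931). The share of higher calls over all genes was 65.7%, and 55.6% with quantile normalization.

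With 1 array left out, the genes that passed ran from 95 (without Tdg-/- replicate 3) to 2722 (without Tdg+/- replicate 1), factors that fell from 2 to 7 and factors that rose from 0 to 1. The 7 occurred without Tdg+/- replicate 1. The log2 changes ran from -0.35 to -0.051 for Twist1, -0.53 to -0.29 for Osr1, -0.51 to -0.31 for Prrx1, 0.43 to 0.54 for Prrx2, -0.56 to -0.44 for Shox2 and -0.27 to -0.14 for Meox2. With quantile normalization of the other 5 arrays, chosen after seeing the data, 2834 genes passed, 7 factors fell and 1 rose, with Twist1 at -0.42, Osr1 at -0.60, Prrx1 at -0.57, Shox2 at -0.46 and Meox2 at -0.24. No paralog difference changed sign over 8 alternatives each. With quantile normalization the shift was -0.80 for the Twist pair, -0.80 for Osr, 0.88 for Prrx and 0.59 for Msx. With the main setting these were -0.79, -1.08, 0.88 and 0.40. The cause of these differences between settings was not tested. Whether replicate numbers pair the samples was not settled. Deviations of same-numbered arrays correlated at 0.302, 0.045 and 0.272, and those of differently numbered arrays from -0.359 to 0.111. Tdg-/- replicate 2 correlated best with Tdg+/- replicate 3 (0.067).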
